A study of Mus musculus with 6 samples.

Results

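The 34 genes described here encode the proteins around collagen fibres and elastic fibres: 8 small leucine-rich proteoglycans, fibrillins and their partners, elastin, fibulins, latent TGF-beta binding proteins, crosslinking enzymes and matricellular proteins. They were chosen by name from a list drawn up by function, with earlier results of these data known. All 34 were found among the 26728 entries of the expression table. RNA was sequenced from 3 pools of adult carotid body and 3 pools of adult adrenal medulla of untreated C57/BL6 mice, bought from Charles River. A carotid body pool held 18 organs, an adrenal medulla pool held 10, and 10 mice gave the tissue of a sample. The carotid body senses oxygen in arterial blood at the fork of the carotid artery, and the adrenal medulla releases adrenaline and noradrenaline from the core of the adrenal gland. The labels do not give the sex of the mice or the mixture of cells in a dissection.

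Small leucine-rich proteoglycans coat collagen fibrils and set their width and spacing. Fibrillins assemble into microfibrils, on which elastin is laid down with the help of fibulins and then crosslinked by lysyl oxidases. Latent TGF-beta binding proteins anchor the inactive growth factor to the same microfibrils. In most organs fibroblasts, and in vessel walls smooth muscle cells, make much of this material.

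The libraries held 13266225 to 16445925 reads. Levels are given in RPKM, reads scaled to mRNA length and library size, and 1 read on an mRNA of 2 kb was worth 0.0304 to 0.0377 RPKM. Of 10 catecholamine cell genes, 1 was called in the carotid body, 6 in the adrenal medulla and 3 in neither. Th, the first enzyme of the pathway, was at 434 to 646 RPKM in carotid body pools and 887 to 2489 RPKM in adrenal medulla pools. The gene called in the carotid body was Ddc, the decarboxylase (855 RPKM in the carotid body and 250 RPKM in the adrenal medulla on average), and Pnmt, which makes adrenaline, averaged 6.84 RPKM in the carotid body and 4325 RPKM in the adrenal medulla. The libraries also held other cells. Of 17 tested fibroblast markers 16 were higher in the carotid body and Tcf21 was higher in the adrenal medulla, with summed levels of 1754 to 2221 RPKM and 171 to 193 RPKM in the carotid body and adrenal medulla pools. In the same order of tissues, 14 of 15 smooth muscle and pericyte markers were higher in the carotid body (sums of 2607 to 3150 and 128 to 129 RPKM), as were 14 of 14 glial markers (630 to 798 and 132 to 147 RPKM) and 10 of 15 endothelial markers (606 to 718 and 279 to 329 RPKM). Markers of the adrenal cortex pointed the other way, with 14 of 14 called in the adrenal medulla (sums of 108 to 225 RPKM in carotid body pools and 14467 to 18860 RPKM in adrenal medulla pools). Some of these markers reached 1 RPKM in 1 tissue alone, so a difference was built into their selection for the test. The carotid body alone let in 1 fibroblast, 4 smooth muscle and pericyte, 4 glial and 1 endothelial marker. The adrenal medulla alone let in Tcf21 and 2 cortical markers. Of 8 cartilage markers, Col2a1, Acan, Matn1, Col9a1 and Chad stayed under 1 RPKM in every library, Col2a1 at 0.262 to 0.375 RPKM in carotid body pools and at 0 in adrenal medulla pools. Comp (4.11 RPKM in the carotid body and 0.0439 RPKM in the adrenal medulla) and Sox9 (2.15 RPKM in the carotid body and 0.719 RPKM in the adrenal medulla) were called higher in the carotid body, and Col11a1 was not called. Comp too was let in by the carotid body alone. None of 11 adipocyte markers was called by limma (0 also at an unadjusted p under 0.05 and 0 with voom), but their sums were 3959 RPKM in carotid body pool 2 and 2445 RPKM in adrenal medulla pool 3, against 267 to 996 RPKM in the other 4 pools. In adrenal medulla pool 3, Cfd alone made up 1641 RPKM of that sum. The Y-linked Ddx3y was at 0.0786 RPKM in adrenal medulla pool 3 and at 11.6 to 33.7 RPKM in the other 5 pools. The part of these differences in the values below was not tested. In whole tissue, fewer cells of a type and less RNA per cell cannot be told apart.

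Most of the matrix genes were higher in the carotid body, by up to 6.19 on the log2 scale. Of the 34 genes, 31 had a higher mean there, and for 28 all 3 carotid body pools lay above all 3 adrenal medulla pools, a pattern shown by 20.6% of the 19505 genes detected. For 2 genes, Pcolce and Efemp1, all 3 adrenal medulla pools lay above the carotid body pools (13% of genes detected), and the pools overlapped for Mfap2, Mfap4, Ltbp3 and Sparc. Differences were tested with limma on log2(RPKM + 1), carotid body minus adrenal medulla, using genes with 1 RPKM or more in 3 or more of the libraries. A call means p under 0.05 after Benjamini-Hochberg adjustment over all 13357 genes tested. The scale understates the difference of low genes. Of the 31 genes that passed this filter, 23 were called higher in the carotid body, where 14.2% of all genes tested were. None was called higher in the adrenal medulla, where 7.73% of all genes were, with 2 of the 31 at an unadjusted p under 0.05 and 0 called by voom. Ltbp2, Lox and Fn1 passed the filter through the carotid body pools alone, so a difference was built into their selection. Here and below, alone means that every pool of the other tissue was under 1 RPKM. Aspn, Fmod, Mfap4, Ltbp1 and Pcolce2 were under 1 RPKM in some adrenal medulla pools. They too needed carotid body pools to pass the filter, so their selection also leaned to the carotid body. With no filter on level, 26 of all 34 were called higher in the carotid body (11.3% of 19505 genes) and 0 higher in the adrenal medulla (5.73%). Their median log2 difference was then 1.90, against 0.02 over all these genes. A test against a 2-fold difference, limma's treat, called 13 of the genes in the carotid body, against 3.63% of all genes, and 0 in the adrenal medulla, against 1.77%.

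**Figure D1:**
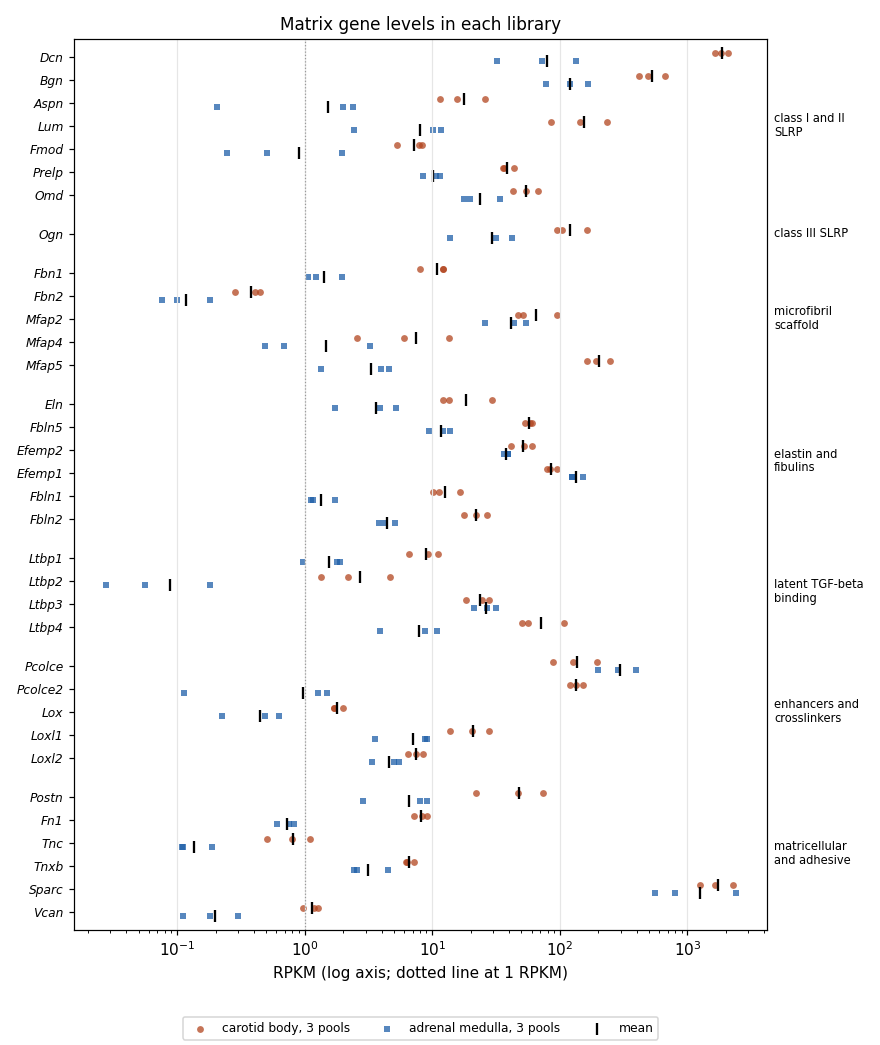
Levels of the 34 genes in each library, in RPKM on a log axis, with a dot for each carotid body pool, a square for each adrenal medulla pool and a bar for each tissue mean. Carotid body pools lie to the right for 28 genes, Pcolce and Efemp1 show the opposite order, and Mfap2, Mfap4, Ltbp3 and Sparc overlap.

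Decorin (Dcn), which binds fibrillar collagen and limits fibril width, had the highest mean level of the 34 genes in the carotid body. It stood at 1819, 2091 and 1640 RPKM in carotid body pools 1, 2 and 3, against 133, 72.7 and 32 RPKM in adrenal medulla pools 1, 2 and 3. The carotid body pools lay close together, while the adrenal medulla pools spread over 4.17-fold. The log2 difference was 4.74 ± 0.46 (SE, adjusted p = 1.63e-04), and by mean level Dcn ranked 35 among genes of the carotid body and 1186 among those of the adrenal medulla. Biglycan (Bgn), its closest relative, was at 493, 417 and 664 RPKM in the carotid body and 78.3, 121 and 165 RPKM in the adrenal medulla. The tissues did not overlap, and the log2 difference was 2.14 ± 0.33 (adjusted p = 0.0017). Asporin (Aspn), the third member of class I, was at 11.5, 25.9 and 15.5 RPKM in carotid body pools and at 1.99, 2.37 and 0.206 RPKM in adrenal medulla pools, a log2 difference of 2.95 ± 0.43.

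Lumican (Lum), a class II proteoglycan known for the spacing of collagen fibrils in the cornea, was at 85.4, 233 and 143 RPKM in the carotid body against 10.1, 11.6 and 2.43 RPKM in the adrenal medulla. The tissues did not overlap, although carotid body pools varied by 2.73-fold (log2 4.19 ± 0.53, adjusted p = 6.79e-04). Fibromodulin (Fmod), which acts in collagen crosslinking of tendon, averaged 7.16 ± 1.6 RPKM in the carotid body and 0.903 ± 0.919 RPKM in the adrenal medulla (mean ± SD, n = 3 pools each, as for all means below), a log2 difference of 2.18. Its 3 adrenal medulla libraries rested on 75, 10 and 24 reads. Prelp, which binds heparan sulphate as well as collagen, averaged 38.8 ± 4.44 RPKM in the carotid body and 10.2 ± 1.54 RPKM in the adrenal medulla (log2 1.84 ± 0.21). Osteomodulin (Omd), best known from bone, had the smallest called difference of class II. It was at 67.3, 43 and 53.8 RPKM in carotid body pools and 33.7, 19.8 and 17.7 RPKM in adrenal medulla pools (log2 1.20 ± 0.29, adjusted p = 0.0193). Its call ended without carotid body pool 1 (adjusted p = 0.0804), carotid body pool 3 (0.061) or adrenal medulla pool 2 (0.0788). Osteoglycin (Ogn), of class III, was at 103, 162 and 94.2 RPKM in the carotid body and 42.4, 31.6 and 13.7 RPKM in the adrenal medulla (log2 2.09 ± 0.41, adjusted p = 0.00635). All 8 proteoglycans were therefore called, and in each the lowest carotid body pool exceeded the highest adrenal medulla pool.

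Several of these genes lie in clusters. In the RefSeq gene table of GRCm38.p6, a later build than the mm9 of the files and used here for gene order, Ecm2, Aspn, Omd and Ogn follow each other on chromosome 13, Dcn, Lum and Kera on chromosome 10, and Optc, Prelp and Fmod on chromosome 1. Ecm2, which encodes a leucine-rich matrix protein, averaged 41.8 ± 6.79 RPKM in the carotid body and 2.46 ± 1 RPKM in the adrenal medulla (log2 3.66 ± 0.28, adjusted p = 5.12e-05), so all 4 neighbours on chromosome 13 had higher levels in carotid body pools. Optc, a class III proteoglycan of the vitreous body, went the other way. It averaged 0.414 ± 0.057 RPKM in the carotid body and 2.96 ± 0.537 RPKM in the adrenal medulla (log2 -1.48 ± 0.17, adjusted p = 3.81e-04), beside Prelp and Fmod, which were higher in the carotid body. Kera, the corneal proteoglycan next to Lum, had no more than 0.0387 RPKM in any library. Cenpp, a kinetochore gene whose span covers Aspn, Omd and Ogn, averaged 1.3 ± 0.645 RPKM in the carotid body and 2.49 ± 1.26 RPKM in the adrenal medulla and was not called (adjusted p = 0.277).

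The start regions of the 3 proteoglycan genes on chromosome 13 are shown because these neighbours differed in the same direction. The sequences are RefSeq's for GRCm38.p6, from 250 bases before to 50 bases after the annotated start, read 5′ to 3′ on the gene's plus strand at chr13:49544193-49544492, chr13:49582212-49582511 and chr13:49607765-49608064. Capitals mark matches to the TATA box (TATAAA) on the printed strand. They also mark, on either strand, the CCAAT box, the GC box (GGGCGG) and the AP-1 motif (TGANTCA).
Aspn: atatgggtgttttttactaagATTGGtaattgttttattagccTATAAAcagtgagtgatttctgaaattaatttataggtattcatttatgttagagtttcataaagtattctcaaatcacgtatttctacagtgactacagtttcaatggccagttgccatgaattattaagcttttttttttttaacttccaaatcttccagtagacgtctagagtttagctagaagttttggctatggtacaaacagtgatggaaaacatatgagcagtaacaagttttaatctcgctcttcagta
Omd: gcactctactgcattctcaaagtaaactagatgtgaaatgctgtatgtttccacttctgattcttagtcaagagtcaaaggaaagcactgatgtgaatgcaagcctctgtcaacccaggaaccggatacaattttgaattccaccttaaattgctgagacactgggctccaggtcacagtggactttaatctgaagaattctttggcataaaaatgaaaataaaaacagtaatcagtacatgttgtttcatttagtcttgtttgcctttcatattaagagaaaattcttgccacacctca
Ogn: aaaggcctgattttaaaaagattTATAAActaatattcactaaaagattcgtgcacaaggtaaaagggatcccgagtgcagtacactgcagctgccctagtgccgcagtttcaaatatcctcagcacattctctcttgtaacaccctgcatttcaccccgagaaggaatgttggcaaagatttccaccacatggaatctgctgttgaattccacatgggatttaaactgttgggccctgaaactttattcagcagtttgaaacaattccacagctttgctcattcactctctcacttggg
Aspn and Ogn each held 1 TATA box, Aspn held 1 CCAAT box, and Omd held none of the 4 motifs. Both TATA matches lie toward the upstream end of the printed sequence, far from the annotated start. The TATA box was present in 8.32% of all 32851 start regions of that length, the AP-1 motif in 7.81%, the CCAAT box in 37.4% and the GC box in 35.7%. Start regions were found for 24 of the 34 genes, some with more than 1, which gave 34 start regions. Of these regions 5 held the TATA box (in Aspn, Ogn, Postn and Tnc), 3 the AP-1 motif, 9 the CCAAT box and 19 the GC box. The G and C content was 31% for Aspn, 37.7% for Omd and 42.3% for Ogn. These matches describe the letters only.

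Among microfibril genes the carotid body had far more Mfap5, while its relative Mfap2 was not called. Fibrillin-1 (Fbn1), the main strand of microfibrils and the gene altered in Marfan syndrome, was at 7.95, 12.2 and 12.2 RPKM in carotid body pools and 1.06, 1.96 and 1.22 RPKM in adrenal medulla pools. The groups were well apart (log2 2.29 ± 0.25, adjusted p = 3.02e-04). Fibrillin-2 (Fbn2), used mostly in development, stayed under 1 RPKM in all libraries and below the filter, with 43 to 67 reads in carotid body pools and 13 to 27 reads in adrenal medulla pools. Mfap5, a small protein that binds fibrillins, reached 191, 164 and 249 RPKM in the carotid body against 4.58, 1.34 and 3.96 RPKM in the adrenal medulla (log2 5.63 ± 0.35, adjusted p = 2.07e-05). This placed it far above its relative Mfap2 in the carotid body and far below it in the adrenal medulla. Mfap2 was at 47.2, 51.2 and 95.5 RPKM in carotid body pools and at 25.8, 43.7 and 54.4 RPKM in adrenal medulla pools, with overlapping groups (log2 0.62 ± 0.36, adjusted p = 0.282). Mfap4, a fibrinogen-related microfibril partner, varied most between pools of the carotid body. It stood at 2.55, 5.98 and 13.6 RPKM in carotid body pools 1, 2 and 3 and 0.492, 3.24 and 0.683 RPKM in adrenal medulla pools 1, 2 and 3, and was not called (log2 1.70 ± 0.55, adjusted p = 0.0597). It was called with the pool number as a block (adjusted p = 0.0293), after removal of carotid body pool 1 (0.0302) or of adrenal medulla pool 2 (0.0252).

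**Figure D2:**
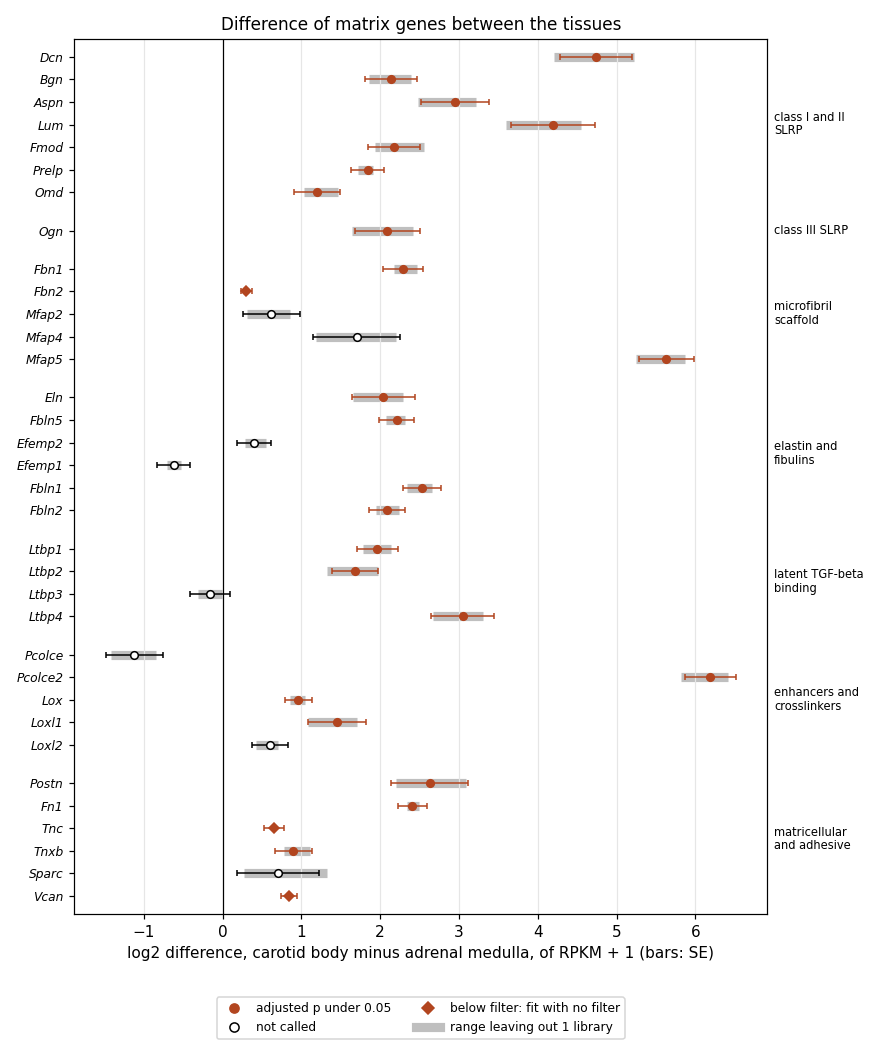
Log2 difference of RPKM + 1, carotid body minus adrenal medulla, for each gene, with SE bars and grey bands for the range when 1 library is left out. Filled dots are genes called at an adjusted p under 0.05, diamonds are the 3 genes below the filter, from a fit with no filter, and the values run from -1.12 for Pcolce to 6.19 for Pcolce2.

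Elastin (Eln), the rubber-like core of elastic fibres, was at 12.1, 13.5 and 29.3 RPKM in carotid body pools and 1.73, 5.15 and 3.91 RPKM in adrenal medulla pools (log2 2.04 ± 0.40, adjusted p = 0.00684). The fibulins differed among themselves. Fbln5, which is needed for elastic fibre assembly, was steady within each tissue at 53, 58.7 and 60.3 RPKM in the carotid body and 12.1, 13.7 and 9.46 RPKM in the adrenal medulla (log2 2.21 ± 0.22, adjusted p = 1.63e-04). Fbln1, a fibulin of basement membranes and elastic fibres, averaged 12.6 ± 3.34 RPKM in carotid body pools and 1.33 ± 0.346 RPKM in adrenal medulla pools (log2 2.53 ± 0.24). Fbln2, which binds many basement membrane proteins, averaged 22.2 ± 4.56 RPKM in carotid body pools and 4.39 ± 0.638 RPKM in adrenal medulla pools (log2 2.09 ± 0.23). Both were called over 2-fold apart. Efemp2 (fibulin-4), which brings lysyl oxidase to elastin, was not called, at 51.1 ± 9.43 RPKM in the carotid body and 38 ± 1.48 RPKM in the adrenal medulla (log2 0.40 ± 0.22, adjusted p = 0.252). Efemp1 (fibulin-3) was the reverse case, at 78.6, 94.9 and 84 RPKM in carotid body pools and 124, 151 and 124 RPKM in adrenal medulla pools. All adrenal medulla pools were above all carotid body pools, but the gene was not called (log2 -0.62 ± 0.21, adjusted p = 0.0718). It was called higher in the adrenal medulla with the pool number as a block (adjusted p = 0.0474), under median-ratio scaling (log2 -0.70, 0.0423) and after joint removal of pool 2 of the carotid body with pool 3 of the adrenal medulla (log2 -0.75, 0.0413).

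Of the latent TGF-beta binding proteins, Ltbp1, Ltbp2 and Ltbp4 were higher in the carotid body and Ltbp3 was not called. Ltbp4, which also assists elastic fibre assembly, was the most abundant of the 4 in the carotid body at 50.4, 56 and 107 RPKM, against 3.86, 8.73 and 10.8 RPKM in the adrenal medulla (log2 3.05 ± 0.40, adjusted p = 7.95e-04). Ltbp3, which binds latent TGF-beta in bone and elsewhere, was the most abundant of the 4 in the adrenal medulla. It was at 18.5, 24.7 and 27.7 RPKM in carotid body pools and 21.2, 26.9 and 31.7 RPKM in adrenal medulla pools (log2 -0.16 ± 0.25, adjusted p = 0.724). Ltbp1, which tethers latent TGF-beta to fibronectin and fibrillin, averaged 8.91 ± 2.22 RPKM in the carotid body and 1.54 ± 0.502 RPKM in the adrenal medulla (log2 1.96 ± 0.26, adjusted p = 7.79e-04). Ltbp2, which unlike its relatives does not bind latent TGF-beta, was counted 130, 410 and 225 times in carotid body libraries and 5, 17 and 3 times in adrenal medulla libraries (log2 1.68 ± 0.29, adjusted p = 0.00351).

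The procollagen enhancers gave the widest contrast. Both genes encode secreted proteins that speed the removal of the C-terminal propeptide of fibrillar procollagens by BMP1-type proteases. Pcolce2 was at 134, 119 and 151 RPKM in carotid body pools and 1.28, 0.113 and 1.5 RPKM in adrenal medulla pools. The lowest adrenal medulla value was 3 reads, and the log2 difference of 6.19 ± 0.32 (adjusted p = 1.11e-05) was the largest of the 34 genes. Pcolce was at 87.6, 127 and 196 RPKM in carotid body pools 1, 2 and 3 and 200, 288 and 398 RPKM in adrenal medulla pools 1, 2 and 3. All adrenal medulla pools were higher, with the lowest of them close to the highest carotid body pool, and the gene was not called (log2 -1.12 ± 0.36, adjusted p = 0.06). With the pool number as a block it was called higher in the adrenal medulla (adjusted p = 0.00661), as it was under quantile scaling (log2 -1.09, 0.0357), after removal of carotid body pool 3 (log2 -1.42, 0.0374) or of adrenal medulla pool 1 (log2 -1.38, 0.0384). With the block, therefore, 24 of the 31 tested genes were called higher in the carotid body and 2, Pcolce and Efemp1, higher in the adrenal medulla, against 16.9% and 10.2% of all genes. No label pairs the pools by number. The block was chosen from correlations in these same data, so the calls it added are not independent evidence.

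The order of the tissues was opposite for Pcolce2 and Pcolce, although Pcolce was called only with the block or in the other settings named above. The start regions of both genes, from the same RefSeq table, are printed for this reason. They lie at chr9:95637378-95637677 (plus strand) for Pcolce2 and chr5:137611355-137611654 (minus strand) for Pcolce in GRCm38.p6, and capitals mark the same 4 motifs as above.
Pcolce2: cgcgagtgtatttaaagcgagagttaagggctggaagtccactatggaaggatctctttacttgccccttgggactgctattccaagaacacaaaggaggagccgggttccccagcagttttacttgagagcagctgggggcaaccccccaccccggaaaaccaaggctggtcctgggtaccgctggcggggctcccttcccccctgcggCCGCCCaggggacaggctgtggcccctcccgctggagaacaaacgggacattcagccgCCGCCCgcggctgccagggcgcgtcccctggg
Pcolce: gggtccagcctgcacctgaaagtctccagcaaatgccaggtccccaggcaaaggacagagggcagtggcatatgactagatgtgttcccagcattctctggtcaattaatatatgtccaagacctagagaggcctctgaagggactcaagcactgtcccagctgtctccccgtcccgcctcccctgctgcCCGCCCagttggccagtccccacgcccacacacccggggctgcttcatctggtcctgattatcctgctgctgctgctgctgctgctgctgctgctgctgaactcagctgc
Pcolce2 held 2 GC boxes and Pcolce held 1, counting either strand, and neither held the other motifs. G and C made up 63.7% and 59.3% of the 2 sequences in that order, with 17 and 5 CG pairs.

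The crosslinking enzymes had smaller log2 differences than Pcolce2. Lysyl oxidase (Lox), which starts the crosslinking of collagen and elastin, was low in both tissues at 2.01, 1.7 and 1.7 RPKM in the carotid body and 0.485, 0.627 and 0.223 RPKM in the adrenal medulla (log2 0.96 ± 0.17, adjusted p = 0.00333). Loxl1, which acts on elastin, was at 13.8, 20.6 and 27.6 RPKM in carotid body pools and 3.55, 8.69 and 9.07 RPKM in adrenal medulla pools (log2 1.45 ± 0.37, adjusted p = 0.0229). The call of Loxl1 ended without carotid body pool 2 (adjusted p = 0.0634) or carotid body pool 3 (0.0887). Loxl2, which crosslinks basement membrane collagen, averaged 7.42 ± 1.03 RPKM in the carotid body and 4.61 ± 1.1 RPKM in the adrenal medulla without a call (log2 0.60 ± 0.23, adjusted p = 0.112).

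Fibronectin (Fn1), an adhesive glycoprotein that integrins bind, was at 7.2, 9.1 and 8.29 RPKM in carotid body pools and 0.601, 0.757 and 0.83 RPKM in adrenal medulla pools, with little spread in either tissue (log2 2.41 ± 0.19, adjusted p = 5.70e-05). Periostin (Postn), a matricellular protein of collagen-rich tissue, was at 22.1, 74.4 and 46.6 RPKM in carotid body pools and 7.95, 9.05 and 2.86 RPKM in adrenal medulla pools (log2 2.63 ± 0.49, adjusted p = 0.005). Its carotid body pools varied over 3.36-fold and still lay above the adrenal medulla pools. Tenascin-C (Tnc), which appears in development and repair, and versican (Vcan), a large proteoglycan that binds hyaluronan, were below the filter. Tnc had 52 to 104 reads in carotid body libraries and 11 to 18 reads in adrenal medulla libraries, and Vcan had 175 to 228 reads and 23 to 53 reads in the same order. Without the filter, limma called both higher in the carotid body, Tnc by 0.65 (adjusted p = 0.0127) and Vcan by 0.84 (adjusted p = 0.00196), along with Fbn2 by 0.30 (adjusted p = 0.0257).

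Tenascin-X (Tnxb), whose loss leaves skin and joints lax, was at 6.37, 7.17 and 6.22 RPKM in the carotid body and 2.56, 2.45 and 4.48 RPKM in the adrenal medulla (log2 0.90 ± 0.24, adjusted p = 0.0279). Its call ended under median-ratio scaling (adjusted p = 0.0541), under quantile scaling (0.0731) and without any 1 library except adrenal medulla pool 3 (0.0754 to 0.124). Tnxb lies at the locus of steroid 21-hydroxylase, and its exons overlap those of the pseudogene Cyp21a2-ps on the other strand in the GENCODE M21 annotation of GRCm38. The active gene Cyp21a1 was at 28.3, 6.45 and 7.25 RPKM in carotid body pools and 858, 1059 and 3107 RPKM in adrenal medulla pools, highest in the same pool as Tnxb within the adrenal medulla. Whether reads of the steroid gene were counted for Tnxb was not tested. In all, exons of 11 of the 34 genes overlap another gene in that annotation, among them Mfap4, which overlaps Mapk7. Whether reads were counted by strand is not given in the sources used here, and without strand the reads of 2 such genes cannot be told apart.

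Sparc, which encodes the collagen-binding osteonectin, was the most abundant of the 34 genes in the adrenal medulla, and the tissues overlapped. It was at 1257, 1654 and 2263 RPKM in carotid body pools 1, 2 and 3 and 557, 806 and 2389 RPKM in adrenal medulla pools 1, 2 and 3 (log2 0.71 ± 0.52, adjusted p = 0.414). Adrenal medulla pool 3 alone exceeded every carotid body pool, and without it Sparc was called higher in the carotid body (log2 1.32, adjusted p = 0.0274).

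That pool also differed from the other adrenal medulla pools in Dcn, Lum, Aspn, Ogn and Postn, where it was the lowest, and in Bgn, Pcolce, Mfap2 and Ltbp4, where it was the highest. Within the adrenal medulla, pool 3 gave the lowest value for 14 of the 34 genes and the highest for 13, where it was lowest for 52.3% and highest for 31.6% of all genes tested. The proteoglycans of class I and II summed to 270, 236 and 229 RPKM in adrenal medulla pools 1, 2 and 3, a total that varied less among these pools than Dcn alone. The 34 genes together summed to 4725, 5607 and 6156 RPKM in carotid body pools and 1332, 1689 and 3338 RPKM in adrenal medulla pools. Dcn made up 38.5%, 37.3% and 26.6% of the sum in the carotid body, and Sparc made up 41.8%, 47.7% and 71.6% of it in the adrenal medulla. Without Dcn and Sparc the sums were 1649, 1862 and 2253 RPKM in carotid body pools and 642, 810 and 917 RPKM in adrenal medulla pools. Within the carotid body, pool 1 was lowest for 21 of the 34 genes, and for 43.9% of all genes tested. With the pools that stood apart in fat or Y-linked transcripts left out (pool 2 of the carotid body, pool 3 of the adrenal medulla), 24 of the 31 genes were called higher in the carotid body and 1, Efemp1, higher in the adrenal medulla.

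**Figure D3:**
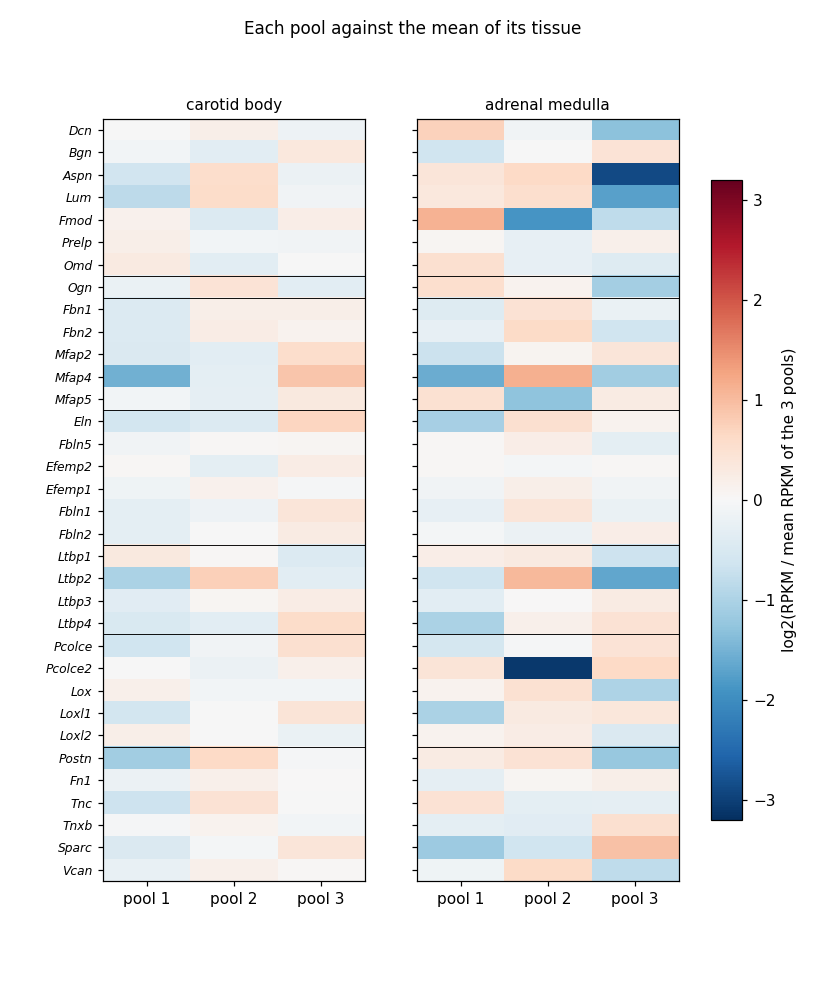
Log2 ratio of each pool to the mean of its own tissue, in RPKM, for the 34 genes in the order of the other plots. In adrenal medulla pool 3, Dcn, Lum, Aspn, Ogn and Postn are low and Sparc, Pcolce and Bgn are high, and in adrenal medulla pool 2 Pcolce2 is low at 0.113 RPKM.

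Ratios within a library compare related genes without regard to scaling between libraries. The 8 pairs were chosen with earlier results in view, so their tests are not independent evidence. Pcolce2 stood at 1.53, 0.934 and 0.772 times Pcolce in carotid body pools and 0.00639, 0.000391 and 0.00377 times in adrenal medulla pools. The Mfap5 to Mfap2 ratio was 4.05, 3.2 and 2.61 in the carotid body and 0.178, 0.0306 and 0.0728 in the adrenal medulla, and the Ltbp4 to Ltbp3 ratio was 2.72, 2.27 and 3.87 in the carotid body and 0.182, 0.324 and 0.342 in the adrenal medulla. Mfap5 and Ltbp4 thus led their relatives in every carotid body pool and in no adrenal medulla pool, and Pcolce2 led Pcolce in carotid body pool 1. The Dcn to Bgn ratio was 3.69, 5.01 and 2.47 in carotid body pools and 1.7, 0.603 and 0.194 in adrenal medulla pools. Efemp1 led Efemp2 and Fbn1 led Fbn2 in all libraries, with ratios that differed in size between the tissues. For 6 of the 8 pairs the tissues did not overlap, with p = 0.10 in a two-sided exact permutation test of the log2 ratio, the smallest that 3 pools against 3 allow, or 0.13 adjusted over the 8 pairs. The Loxl1 to Loxl2 ratio (exact permutation p = 0.20) and the Lum to Fmod ratio (exact permutation p = 0.60) overlapped.

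**Figure D4:**
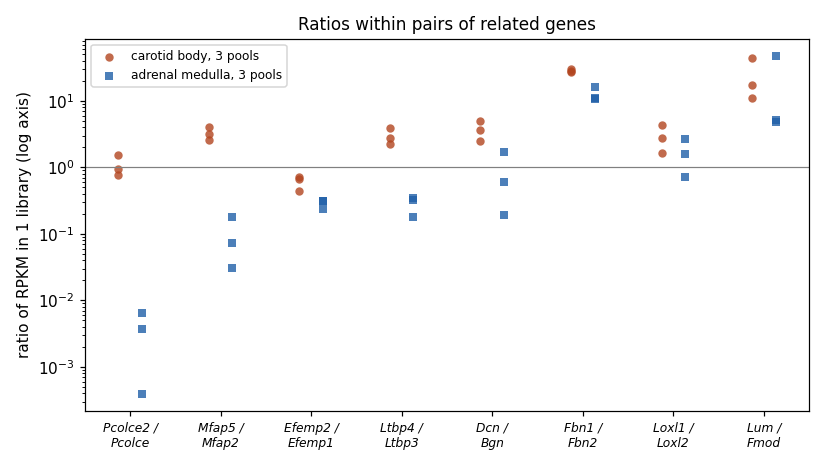
Ratio of RPKM of 2 related genes in each library on a log axis, with dots for carotid body pools and squares for adrenal medulla pools. The Pcolce2 to Pcolce ratio spans 0.772 to 1.53 in the carotid body and 0.000391 to 0.00639 in the adrenal medulla, and the last pairs on the right, Loxl1 to Loxl2 and Lum to Fmod, overlap.

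Related matrix genes were taken from lists drawn up by function, with earlier results of these data known. Their counts are to be read against the 14.2% and 7.73% of all genes called in the carotid body and adrenal medulla. With no filter these shares were 11.3% and 5.73%. Of 26 tested matricellular and adhesive glycoproteins outside the 34, 17 were called in the carotid body, 2 in the adrenal medulla and 7 in neither (median log2 1.67, against 0.02 over all genes tested). Of these 26 genes, 6 passed the filter through the carotid body pools alone, and with no filter 15 and 3 of all 32 were called in the carotid body and adrenal medulla (median 1.02). Nov, a growth-regulating CCN protein, averaged 25.4 ± 6.81 RPKM in the carotid body and 0.287 ± 0.116 RPKM in the adrenal medulla (log2 4.32 ± 0.25), followed by the collagen-binding Dpt (3.14), the Sparc relative Sparcl1 (2.87) and Fndc1 (2.80). Of 17 other elastic fibre and crosslinking genes, 8 were called in the carotid body, 1 in the adrenal medulla and 8 in neither (median 0.89). Carotid body pools alone let in 5 of the 17, and adrenal medulla pools alone let in 1, and with no filter 10 and 0 of all 22 were called in the carotid body and adrenal medulla (median 0.76). The fibulin family gene Fbln7, at 75.2 ± 7.85 RPKM in carotid body pools and 3.09 ± 0.697 RPKM in adrenal medulla pools, led them (log2 4.23 ± 0.22, adjusted p = 1.11e-05), with Mmrn1, an EMILIN family gene of platelets and endothelium, at a log2 difference of 2.40 and Adamtsl4 at 1.57. Of 8 tested other proteoglycans, Ecm2 and Podn (2.05) were called in the carotid body, Optc in the adrenal medulla and 5 in neither (median 0.69). Podn passed the filter through carotid body pools alone and Optc through adrenal medulla pools alone. With no filter, 2 and 1 of all 19 were called in the carotid body and adrenal medulla, and the median was 0.02, that of all genes. With the pool number as a block, 4 and 3 of the 8 were called in the carotid body and adrenal medulla.

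The growth factors that latent TGF-beta binding proteins hold differed by form. Tgfb2 was at 13.4, 19.4 and 14.6 RPKM in carotid body pools and 3.31, 3.84 and 1.13 RPKM in adrenal medulla pools (log2 2.23 ± 0.33, adjusted p = 0.00157). Tgfb3 averaged 20.8 ± 4.01 RPKM in the carotid body and 7.88 ± 1.39 RPKM in the adrenal medulla (log2 1.29 ± 0.24, adjusted p = 0.00448). Tgfb1 was not called, at 3.99 ± 2.42 RPKM in the carotid body and 2.9 ± 1.82 RPKM in the adrenal medulla (log2 0.38, adjusted p = 0.628). Of 18 tested TGF-beta ligands, receptors and antagonists, 9 were called in the carotid body and 9 in neither tissue (median 1.00), with the receptor gene Acvrl1, an endothelial gene, at a log2 difference of 2.24, the antagonist Grem1 at 2.08 and the inhibitory Smad6 at 1.79. Carotid body pools alone let in 1 of the 18, Grem1. With no filter 9 and 0 of all 20 were called in the carotid body and adrenal medulla (median 0.67). The count in the adrenal medulla was 0 with limma, 1 at an unadjusted p under 0.05 and 0 with voom. Among 19 matrix proteases and inhibitors, 14 were called in the carotid body and 5 in neither tissue (median 1.47), led by the gelatinase gene Mmp2 at 31.9 ± 5.83 RPKM in the carotid body and 2.32 ± 0.225 RPKM in the adrenal medulla (log2 3.30 ± 0.22), Mmp23 (2.93), Mmp3 (2.38) and Adamts2 (2.21), which removes the N-terminal propeptide of procollagen. None was higher in the adrenal medulla with limma, 0 at an unadjusted p under 0.05 and 0 with voom. Carotid body pools alone let in 1 of the 19 protease and inhibitor genes. With no filter 12 and 0 of all 22 were called in the carotid body and adrenal medulla (median 1.32). Integrin genes, which encode receptors for these proteins, split with 4 of 9 higher in the carotid body, 1 higher in the adrenal medulla and 4 not called (median 0.69). Carotid body pools alone let in 2 of the 9, Itga7 among them, and with no filter 5 and 1 of all 14 were called in the carotid body and adrenal medulla (median 0.32). Itga7, a laminin receptor subunit of muscle, was higher by 2.36 (log2) and Itga9, which binds tenascin-C, had a log2 difference of -0.95 at 4.52 ± 0.695 RPKM in the carotid body and 9.6 ± 0.821 RPKM in the adrenal medulla. Of these lists, Dpt and Mmp2 are also among the fibroblast markers, which were higher in the same carotid body libraries. Comp of the matricellular list, and Acan and Chad of the other proteoglycans, are also among the cartilage markers.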

How the data were processed

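RNA of 3 carotid body and 3 adrenal medulla pools was amplified from total RNA and made into Illumina libraries, per the labels' protocols. Bowtie 0.9.8 and the build mm9 are named in the submitters' processing notes, and the counter is not given in the sources used here. The deposited values are RPKM by the authors for the 23511 entries with an mRNA length. RPKM times length came out in whole reads, within 0.01, for 106276 of 106276 values above 0, which gave the depth. The 3217 entries without a length hold read counts, 5.85% to 8.27% of a library's reads, and were left out. No 2 pools of a tissue matched within counting error (mean chi-square per gene of 42 to 159 across the pairs of pools).

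The test used limma 3.58.1 (run under R 4.3.3) with values as log2(RPKM + 1), a variance trend and no block, two-sided, for genes of at least 1 RPKM in 3 or more libraries. The labels do not say that the pools came from separate mice, so p-values measure only the spread between these pools. Deviations of same-numbered carotid body and adrenal medulla pools from their tissue means correlated at 0.259, 0.128 and 0.473, all above 0.1, although carotid body pool 2 with adrenal medulla pool 1 also reached 0.291. As every same-numbered pair passed 0.1, the numbers in the sample titles served as a block. The fit with this block is given where it changed a call. Y-linked levels differed between the pools numbered 3. Carotid body pool 3 held 11.6 RPKM of Ddx3y and 12.1 RPKM of Eif2s3y. Adrenal medulla pool 3 held 0.0786 RPKM and 0 RPKM of these genes. As labelled, the pools numbered 3 therefore did not come from the same set of mice, and the block does not stand for shared mice there. Whether the pools numbered 1 or 2 shared mice was not tested. Voom on the recovered reads was an alternative. The comparison was tested on simulated data. Ratios of related genes were compared with scipy 1.17.1, and tables and plots used Python 3.11.15, pandas 2.3.3, numpy 2.4.6 and matplotlib 3.10.9. All 34 members are named, with up to 4 called genes of the largest difference from each related list. Members and lists were chosen with earlier results of these data known.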

Additional observations from a re-analysis of the deposited data

How the results depend on the processing

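Across 16 other settings, 472 of the members' log2 differences kept their direction and their side of the threshold, 12 lost a call, 12 gained one and 0 changed sign. Members called higher in the carotid body numbered 20 to 24 when 1 library was left out, and members called higher in the adrenal medulla 0 to 1. The adrenal medulla count was 1 with median-ratio or quantile scaling, 2 with the replicate block and 1 without the 2 pools that stood apart. The block added Mfap4, Efemp1 and Pcolce and changed no other member's call.

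Over all genes, leaving out 1 library gave 1460 to 1999 calls in the carotid body and 692 to 1464 in the adrenal medulla, and 346 to 466 and 178 to 296 genes over 2-fold apart. Without the pools that stood apart, 2067 genes were called higher in the adrenal medulla, against 1033 with all pools. The 485 and 237 genes over 2-fold apart became 205 and 107 with a pseudocount of 5, and those of the carotid body became 729 with a pseudocount of 0.1 and 746 with voom. Calls leaning to the carotid body made up 64.7% of all calls. The share was 58.4% with median-ratio scaling, 55% with quantile scaling and 48.3% without the pools that stood apart.

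Among related genes, the replicate block gave 4 and 3 other proteoglycans in the carotid body and adrenal medulla, 1 TGF-beta gene and 2 integrin genes in the adrenal medulla. Quantile scaling gave 2 other proteoglycans in the adrenal medulla. The elastic fibre gene of the adrenal medulla, Adamtsl2, was lost (0 called) with a pseudocount of 5, with no filter and without the pools that stood apart, a setting that gave 1 matricellular gene, 1 TGF-beta gene and 2 protease genes there. Leaving out 1 library gave 0 to 1 elastic fibre, TGF-beta, protease or integrin genes, 1 to 2 other proteoglycans and 0 to 3 matricellular genes in the adrenal medulla. The cause of these shifts was not tested. Genes with few reads in the adrenal medulla, such as Pcolce2 (3 to 46), limit the precision of their folds.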
